A study of Mus musculus with 16 samples.

Results

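Thymocytes begin as double negative (DN) cells without CD4 or CD8, pass through the double positive (DP) stage and end as mature single positive cells with CD4 (SP4) or CD8 (SP8). The peaks described here are those that separated the DN stage from both mature stages in ATAC-seq, a method in which the Tn5 transposase cuts open chromatin and tags the fragments for sequencing. A DN peak that shared no bp with any SP4 or SP8 peak was called lost by maturity, and an SP4 peak that shared 1 bp or more with an SP8 peak and none with any DN peak was called gained by maturity. Of the 476734 peaks in the lists of the 4 stages, 51324 DN peaks were lost and 11385 SP4 peaks were gained, 62709 in all. The members were chosen by the peak calls of the DN, SP4 and SP8 lists, so their number and height describe those lists and were not tested. The DP list, the genome sequence and the gene positions took no part in the choice.

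All 4 stages came from the thymus of 4 wild type C57BL/6J mice aged 9 weeks, with 1 library per mouse and stage (16 libraries), and were separated by flow cytometry. DN cells were taken as negative for CD4, CD8, CD3 and a panel of lineage markers of B cells, myeloid cells, erythroid cells, dendritic cells, natural killer cells and gamma delta T cells, and SP4 and SP8 cells as CD3 positive. The authors pooled the mice of a stage before they called peaks, so each stage is 1 list, no value has an error between mice, and all comparisons describe these lists. The lists held 150139 (DN), 107110 (DP), 115074 (SP4) and 104411 (SP8) peaks on 19 autosomes, and the files give no read counts. Per the study's methods each library was reduced to the median depth of all libraries before pooling. Intervals given with shares are 95% Wilson intervals, which cover counting error only.

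As background, early DN cells are multipotent progenitors that still carry stem and progenitor transcription factors. Under Notch signals they commit to the T lineage, rearrange the T cell receptor (TCR) beta gene and, as DP cells, the alpha gene. E proteins (Tcf12, or HEB, and Tcf3, which encodes E2A) bind E-box sequences in DN and DP cells, and TCR signals in positive selection induce Id3, an inhibitor of E proteins. Runx proteins act at all stages. Tcf7 and Lef1 encode the TCF/LEF factors, and Foxo1 and Klf2 act in the mature cells that leave the thymus through the receptor S1pr1.

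The labels of the lists were checked at the transcriptional start sites (TSSs) of stage markers. Peaks were ranked within their own list by fold enrichment over the local background, and heights below are these percentiles, from 0 for the lowest peak to 100 for the highest. The TSS of Ptcra, the pre-TCR alpha chain of DN cells, was at percentile 94.5 (DN), 92.3 (DP), 28.2 (SP4) and 15.7 (SP8). The TSS of Dntt, the template-free polymerase of recombination, had a peak at DN (48.6) and DP (7.02) and none at SP4 or SP8. The Rag1 TSS fell from 84.8 and 88.9 at DN and DP to 64.4 and 56.0 at SP4 and SP8. The number of peaks within 20 kb of Il7r, the interleukin 7 receptor gene, was 4 (DN), 3 (DP), 12 (SP4) and 9 (SP8). Its TSS went the other way and stood higher at DN (91.9) and DP (96.2) than at SP4 (84.1) and SP8 (74.3). Not every marker separated the stages at the TSS, since Kit, a DN marker, stood at 86.5 at DN and 83.5 at SP8.

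The sequences around the summits of selected members, some of them the strongest, show what the motif counts below rest on. Each is the reference sequence of GRCm38 (mm10), plus strand, 5′ to 3′, for the 200 bp centred on the summit. Capitals mark matches to the E-box words CAGCTG or CAGGTG, to the RUNX words TGTGGT or TGCGGT, and to the TCF/LEF words CTTTGAT or CTTTGTT, on either strand. The first set is lost peaks that were still called at DP. It holds the strongest 2 such peaks, in an intron of Mylk (chr16:34855244-34855443) and in intergenic sequence nearest to Gfra2 (chr14:71211743-71211942), and the strongest lost peak of Tcf12, in an intron (chr9:71986799-71986998).
Mylk lost peak: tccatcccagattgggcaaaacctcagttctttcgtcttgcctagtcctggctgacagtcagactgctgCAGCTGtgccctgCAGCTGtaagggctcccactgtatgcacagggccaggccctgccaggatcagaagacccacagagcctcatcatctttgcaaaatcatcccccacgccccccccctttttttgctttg
Gfra2 lost peak: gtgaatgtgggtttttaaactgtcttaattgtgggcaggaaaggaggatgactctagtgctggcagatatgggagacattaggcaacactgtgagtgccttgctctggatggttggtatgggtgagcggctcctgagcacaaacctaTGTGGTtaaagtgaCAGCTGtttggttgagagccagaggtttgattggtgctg
Tcf12 lost peak: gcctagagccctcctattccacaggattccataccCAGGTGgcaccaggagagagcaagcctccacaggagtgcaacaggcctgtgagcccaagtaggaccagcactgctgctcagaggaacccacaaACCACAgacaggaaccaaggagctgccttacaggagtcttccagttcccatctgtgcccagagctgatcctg

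The second set is lost peaks with no DP peak. It holds a peak 19988 bp from the TSS of Ifi44, just past the 3′ end of this interferon-response gene (chr3:151729872-151730071), and a peak in an intron of Meis1 (chr11:18983916-18984115).
Ifi44 lost peak: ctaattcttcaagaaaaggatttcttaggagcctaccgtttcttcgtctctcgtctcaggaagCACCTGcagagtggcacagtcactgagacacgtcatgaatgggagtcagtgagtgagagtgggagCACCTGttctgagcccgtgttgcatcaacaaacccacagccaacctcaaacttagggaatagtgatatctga
Meis1 lost peak: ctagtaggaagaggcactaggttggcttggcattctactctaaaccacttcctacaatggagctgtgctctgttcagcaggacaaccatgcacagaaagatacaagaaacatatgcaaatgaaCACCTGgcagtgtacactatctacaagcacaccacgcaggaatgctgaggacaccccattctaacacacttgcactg

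The third set is gained peaks. The strongest gained peak of all was intergenic, nearest to Slco3a1 (chr7:74663899-74664098), and the strongest with no DP peak lay at an annotated exon 10.9 kb from the TSS of Tnpo1 (chr13:98937182-98937381). The strongest gained peaks at Satb1 (chr17:51844856-51845055) and Lef1 (chr3:131167834-131168033) are shown (ranked by the lower of the SP4 and SP8 percentiles) because these genes were among the 10 with the most gained peaks. The windows of Satb1, Lef1, Meis1 and Tcf12 were picked after their values were seen.
Slco3a1 gained peak: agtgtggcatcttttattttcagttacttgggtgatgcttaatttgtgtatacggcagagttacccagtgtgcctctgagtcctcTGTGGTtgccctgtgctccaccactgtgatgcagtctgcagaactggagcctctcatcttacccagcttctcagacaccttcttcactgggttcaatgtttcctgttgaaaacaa
Tnpo1 gained peak: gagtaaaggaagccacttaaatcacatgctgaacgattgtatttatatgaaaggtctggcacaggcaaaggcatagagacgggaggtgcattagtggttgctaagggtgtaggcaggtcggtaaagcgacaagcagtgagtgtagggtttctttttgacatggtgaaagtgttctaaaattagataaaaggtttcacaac
Satb1 gained peak: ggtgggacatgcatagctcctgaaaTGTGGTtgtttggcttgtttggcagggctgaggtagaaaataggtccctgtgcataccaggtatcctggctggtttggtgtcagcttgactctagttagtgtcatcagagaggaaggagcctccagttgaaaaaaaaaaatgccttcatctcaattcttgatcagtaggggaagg
Lef1 gained peak: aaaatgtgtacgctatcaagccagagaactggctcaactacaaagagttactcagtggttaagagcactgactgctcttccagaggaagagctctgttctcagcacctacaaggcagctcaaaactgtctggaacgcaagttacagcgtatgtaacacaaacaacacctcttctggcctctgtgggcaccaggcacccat

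The lost windows shown each held an E-box word, and those of Mylk and Ifi44 held 2 each. They are a selection of strong peaks, and over all lost windows E-box words were present in 49.5%. None of the 4 gained windows held an E-box word, and those of Slco3a1 and Satb1 held a RUNX word. Parts of the windows were repeat-masked in the reference, up to 61.5% of the bases at Lef1.

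Loss was more frequent than gain with the deposited lists and this rule. The 51324 lost peaks were 34.2% of the DN list (interval 33.9 to 34.4), and the 11385 gained peaks were 9.89% of the SP4 list (9.72 to 10.1). These percentages are the background for all counts of lost and gained peaks below. There were 4.51 lost peaks for each gained peak. The share of lost peaks ran from 31.4% on chromosome 15 to 36.6% on chromosome 5, and the share of gained peaks from 8.73% on chromosome 19 to 11.9% on chromosome 15. Another 77826 DN peaks (51.8%) were shared with both mature lists and are named kept, 11912 were shared with SP4 only and 9077 with SP8 only. 

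Both the presence and the size of this excess depended on the length of the lists and on the rule. When each list was reduced to its 104411 best peaks by q-value, the length of the shortest list, 24766 peaks were lost and 17364 gained, or 1.43 lost peaks for each gained peak. The rule is also not symmetric, because a lost peak had to be absent from 2 lists and a gained peak present in 2. Between the DN and SP4 lists alone, 60401 DN peaks had no SP4 peak and 27642 SP4 peaks had no DN peak, a ratio of 2.19, and at equal lengths of these lists the counts were 31660 and 32353, a ratio of 0.979. Fewer cells with an open site and less signal per cell cannot be told apart in pooled cells, and a peak under the threshold counts as not called.

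Most lost peaks were already without a call at DP, and most gained peaks were not yet called there. Of the lost peaks, 40393 (78.7%, interval 78.3 to 79.1) had no DP peak and 10931 (21.3%) were still called at DP. Over all DN peaks 39.2% had no DP peak, and over the kept peaks 10.9%. Of the gained peaks, 3762 (33.0%, 32.2 to 33.9) were already called at DP and 7623 (67.0%) appeared only in the mature lists. Over all SP4 peaks 69.4% had a DP peak, over the SP4 peaks without a DN peak 22.7%, and over the kept SP4 peaks 89.2%. The gained peaks were at DP more often than the SP4 peaks without a DN peak on 19 of 19 chromosomes. That comparison set includes the gained peaks, and its remainder, SP4 peaks with neither a DN nor an SP8 peak, had a DP peak in 15.5%. Gained peaks had to be called in a second list, so this order was not independent of the rule. With lists of equal length, 69.9% of the lost peaks had no DP peak and 45.8% of the gained peaks had one, so both orders held with other sizes.

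**Figure D1:**
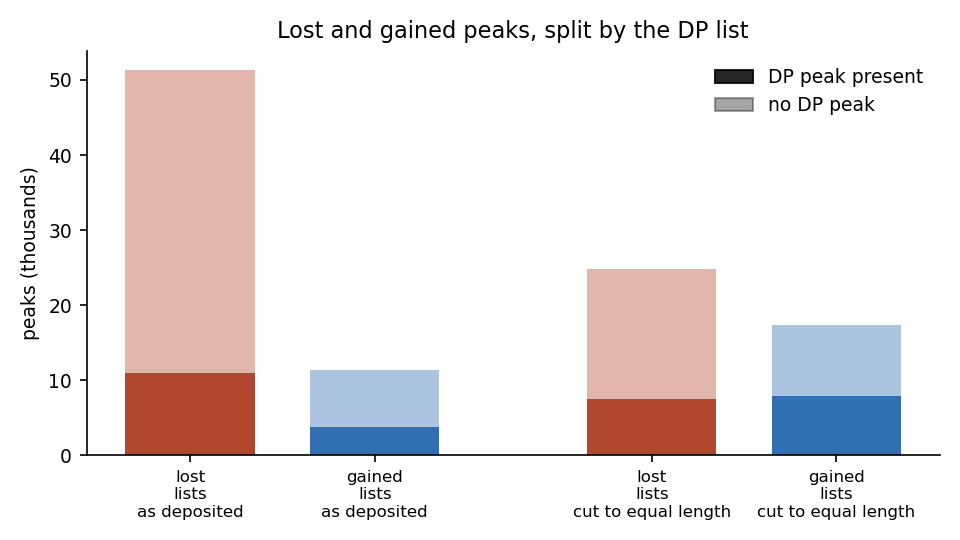
Number of lost (red) and gained (blue) peaks, with the deposited lists and with lists of equal length. Dark parts have a peak in the DP list and pale parts have none. With the deposited lists 10931 of 51324 lost peaks and 3762 of 11385 gained peaks are dark, and the excess of lost over gained peaks shrinks from 4.51 to 1.43 fold at equal length.

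Lost and gained peaks were lower and narrower than kept peaks. The median percentile was 31.2 (quartiles 16.3 and 51.7) for lost peaks at DN and 35.9 (16.8 and 56.9) for gained peaks at SP4, beside 67.7 for the kept DN peaks and 64.4 for the kept SP4 peaks. Median widths were 162, 177 and 309 bp. The share of DN peaks that were lost was 51.6% in the lowest decile of height, 54.0% in the decile from 20 to 30 and 6.19% in the highest. The share of SP4 peaks that were gained went from 16.1% in the lowest decile to 2.48% in the highest. High members existed all the same, since 3652 lost peaks stood at a percentile of at least 75 and 931 at 90 or more, against 1164 and 285 gained peaks.

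The state at DP moved with the height. Among lost peaks the share still called at DP went from 15.1% between the percentiles 10 and 20 to 42.0% in the highest decile, and among gained peaks the share already called at DP was between 29.0% and 37.6% in the lower deciles and 44.6% in the highest. The lost peaks that were still called at DP stood at a median percentile of 41.1 at DN and 29.2 at DP, and 64.6% of them were lower at DP than at DN. The kept DN peaks had medians of 70.7 and 68.0, and 54.0% of them were lower at DP. The gained peaks called at DP stood at 30.5 there and at 37.0 at SP4, and 61.0% of them were lower at DP. Only 489 (4.47%) of these lost peaks and 234 (6.22%) of these gained peaks reached a percentile of 75 at DP, beside 39.9% of the kept peaks.

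**Figure D2:**
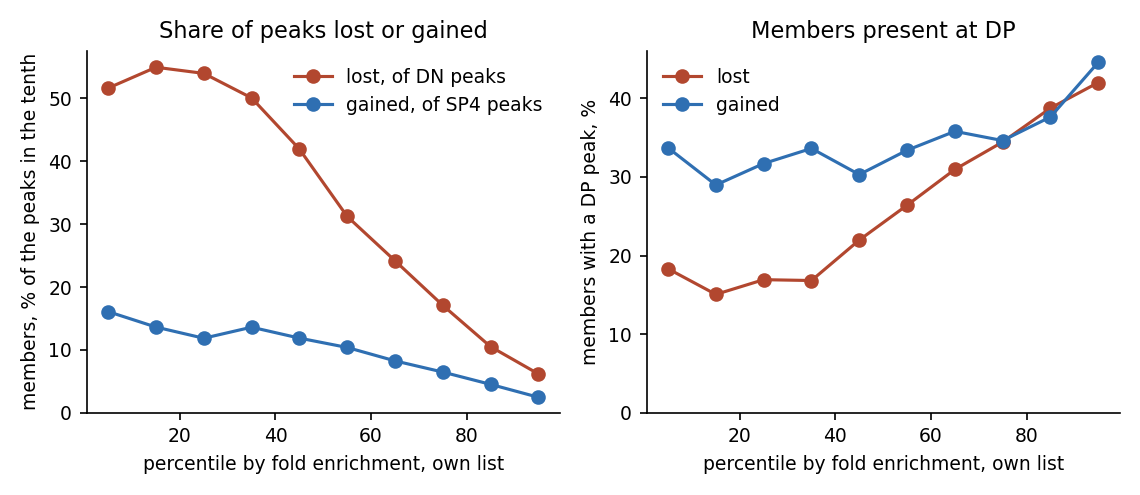
Left, percent of DN peaks that were lost (red) and of SP4 peaks that were gained (blue) in each decile of peak height. Right, percent of the lost and gained peaks that had a DP peak. Loss falls from over 50% in the lowest deciles to 6.19% in the highest, while the share of lost peaks still called at DP rises to 42.0%.

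Few members were close calls of the overlap rule. Only 42 lost peaks had an SP4 or SP8 peak within 10 bp, and 80 DN peaks escaped loss by sharing 1 to 10 bp. The nearest mature peak was over 1 kb away for 37603 lost peaks (73.3%). For gained peaks, 18 had a DN peak within 10 bp, 25 more SP4 peaks with an SP8 peak shared 1 to 10 bp with DN, and 6758 (59.4%) were over 1 kb from any DN peak. Gained peaks were not set beside lost peaks in particular, with a median distance of 10548 bp to the nearest lost summit, against 8499.5 bp for kept SP4 peaks.

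Members lay mostly away from promoters, within introns. A promoter, the 200 bp upstream of a TSS, was touched by 6.57% of lost peaks (6.36 to 6.79) and 5.24% of gained peaks (4.85 to 5.67), against 22.2% of kept peaks (21.9 to 22.5). Both were below the kept peaks on 19 of 19 chromosomes, and lost peaks were above gained peaks on 13 of 19. Introns held 49.7% of lost, 55.7% of gained and 40.5% of kept peaks, exons 14.7%, 12.6% and 13.7%, and intergenic sequence 29.1%, 26.4% and 23.5%. The median distance to the nearest TSS was 5764.5 bp for lost, 6278 bp for gained and 3100 bp for kept peaks. Members seen at DP were at promoters more often, 9.20% of lost peaks still called at DP against 5.86% of the others, and 8.16% of gained peaks already called at DP against 3.80%. The windows of gained peaks had a lower GC content than those of lost peaks, with medians of 47.5% and 51.5% beside 52% in kept peaks, and the means kept this order on 19 of 19 chromosomes.

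E-box words were the sequences that differed most between lost and gained peaks. At least 1 of both E-box words was present in 49.5% of the lost windows (49.0 to 49.9), 34.2% of the kept windows (33.9 to 34.6) and 19.9% of the gained windows (19.2 to 20.7). Lost windows were above and gained windows below the kept windows on 19 of 19 chromosomes. The word CAGCTG occurred in 25.4% of lost and 8.27% of gained windows, a ratio of 3.07, and CAGGTG in 32.02% and 12.7%, a ratio of 2.53. Over all peaks of the 4 lists these words occurred in 17.4% and 22.2% of windows. Windows with 2 or more E-boxes made up 14.6% of lost, 7.29% of kept and 2.39% of gained windows.

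The RUNX words followed the same order between lost and gained peaks, at 33.7% and 21.7% of windows, with 27.1% over all peaks. An E-box and a RUNX word stood together in 16.3% of lost, 9.65% of kept and 3.83% of gained windows. Neither was found in 33.1% of lost and 62.2% of gained windows. A word of the Ikaros family, IKZF (TTGGGAA), was likewise more frequent in lost than in gained windows, at 2.91% and 2.02%, on 19 of 19 chromosomes and beside 2.26% over all peaks.

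Other words were more frequent in gained windows. TCF/LEF words occurred in 12.3% of gained and 7.97% of lost windows, with 8.57% over all peaks. The AP-1 word TGANTCA, bound by Fos and Jun family dimers, occurred in 9.96% and 6.61%, with 6.86% over all peaks. For both words the gained share was the higher on 19 of 19 chromosomes. The IRF word GAAANNGAA occurred in 7.91% of gained and 5.405% of lost windows (6.10% over all peaks), again on 19 of 19 chromosomes. Smaller groups were the FOXO word TGTTTAC (3.63% and 2.24%, 2.51% over all peaks), the NF-kB word GGGNNTTCC (4.44% and 3.25%, 3.56% over all peaks) and the GFI word AAATCAC (2.84% and 1.71%, 1.89% over all peaks). The ETS words ACAGGAAG or ACCGGAAG occurred in 9.34% of gained and 7.28% of lost windows, and in 9.84% over all peaks. Of the 26 motifs searched, 9 had the higher share in lost and 17 in gained windows. CTCF words, which mark sites of the architectural factor CTCF, were rare in both (1.86% of lost and 2.03% of gained windows) against 5.39% over all peaks.

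**Figure D3:**
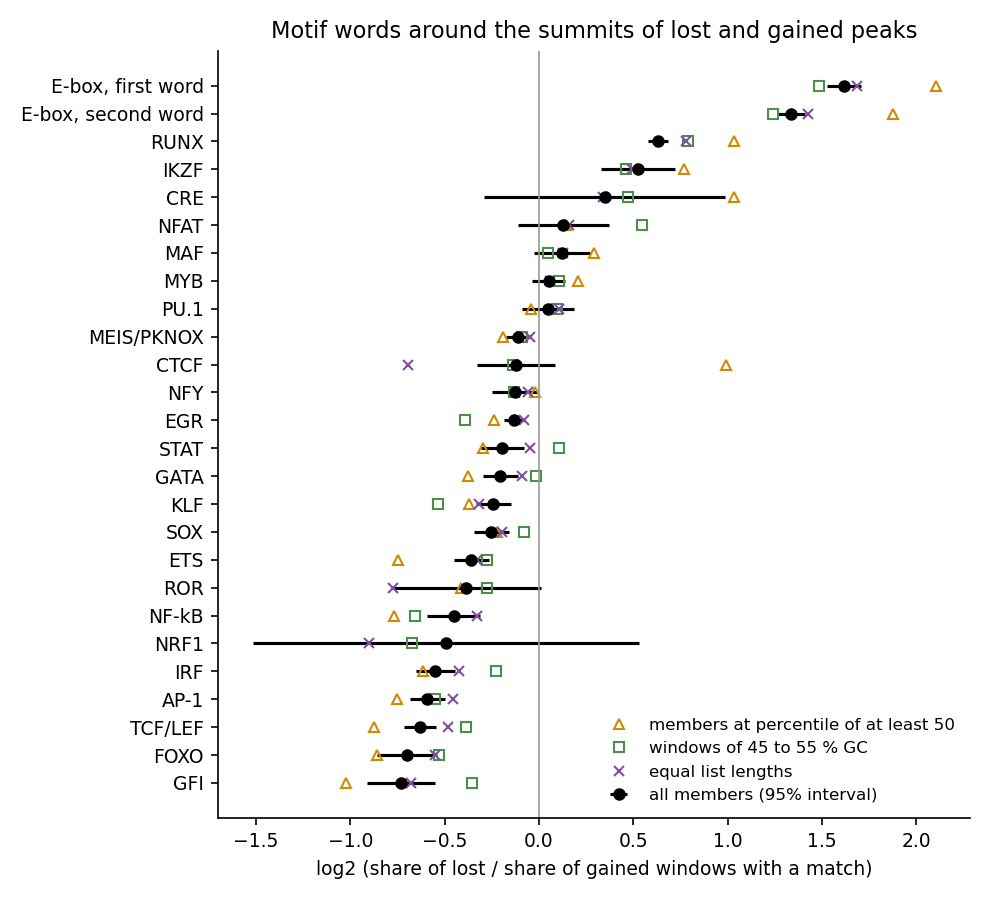
The log2 ratio of the share of lost to the share of gained windows with a match, for 26 motifs (black, with 95% counting intervals), and the same among members at a percentile of at least 50, among windows of 45 to 55% GC and with lists of equal length. The first E-box word is CAGCTG and the second CAGGTG. The E-box and RUNX words stand to the right of 0 under each setting plotted, and the TCF/LEF, AP-1, FOXO and GFI words to the left.

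The orders of the E-box, RUNX and TCF/LEF words held among high members and among windows of 45 to 55% GC, while some smaller differences turned. Within this range the GC content of lost and gained windows was not matched. CTCF words were more frequent in lost windows among members at a percentile of at least 50 (log2 ratio 0.99). The order turned there for PU.1 words (log2 ratio -0.04), and among windows of 45 to 55% GC for STAT words (log2 ratio 0.11). Among members at a percentile of at least 50, an E-box word was present in 58.8% of lost and 17.0% of gained windows, and RUNX words in 42.4% and 20.7%. Among windows of 45 to 55% GC the E-box shares were 49.8% and 21.6%, and with lists of equal length 55.9% and 21.6%. TCF/LEF words were at 15.3% of gained and 8.34% of lost windows among the high members. Among the windows of 45 to 55% GC they were at 11.4% and 8.75%.

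The E-box words were more frequent in higher lost peaks and less frequent in higher gained peaks. From the lowest to the highest quartile of DN heights, CAGCTG went from 22.1% to 37.7% of lost windows, CAGGTG from 29.5% to 45.4% and RUNX words from 28.9% to 48.6%. In gained windows CAGCTG went from 9.05% to 7.04% and CAGGTG from 14.2% to 9.62%, and RUNX words stayed between 20.02% and 22.8%. TCF/LEF words went from 9.95% to 17.4% of gained windows and from 7.50% to 8.63% of lost windows, and AP-1 words from 8.11% to 10.9% and from 6.14% to 7.78%. Kept peaks also had more E-box words with height, from 11.7% to 21.4% for CAGCTG, below the lost peaks in each quartile.

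**Figure D4:**
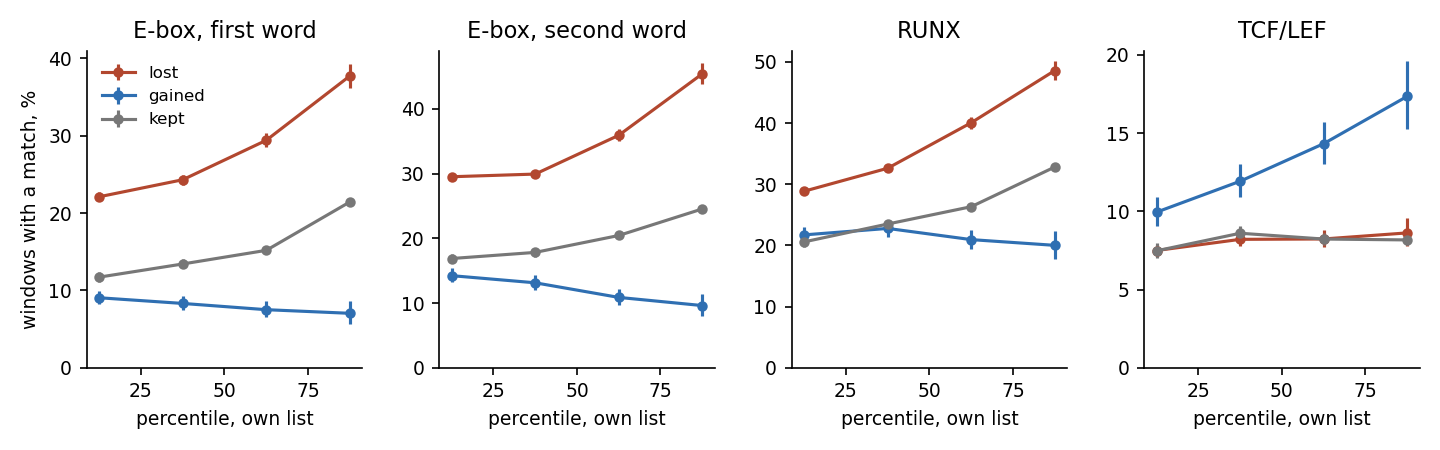
Percent of 200 bp windows with a match in lost (red), gained (blue) and kept DN (grey) peaks, by quartile of peak height over the own list, with 95% counting intervals. The first E-box word is CAGCTG and the second CAGGTG. E-box and RUNX shares rise with height in lost peaks, to 48.6% for RUNX, and the TCF/LEF share rises in gained peaks, to 17.4%.

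The members that were called at DP differed in motifs from those that were not. An E-box word was present in 61.6% (60.7 to 62.5) of the lost windows still called at DP and in 46.2% (45.7 to 46.7) of those already absent. RUNX words went the other way, at 27.4% and 35.4%, on 19 of 19 chromosomes. GATA words (AGATAA) were at 6.21% of lost windows still called at DP and 8.45% of those absent, again on 19 of 19 chromosomes. ROR words (such as AGTGGGTCA or AGTAGGTCA) were rare, at 0.842% and 0.327%, but higher in the windows called at DP on 17 of 19 chromosomes. Among gained peaks ROR words were at 1.14% of the windows called at DP and 0.289% of the others. AP-1 words were at 7.02% of the gained windows called at DP and 11.4% of the windows first called in the mature lists, and RUNX words at 17.0% and 24.0%, both on 19 of 19 chromosomes.

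Members near genes of T cell development were counted within the gene and 20 kb on each side. Over all 20780 protein-coding genes, 15356 had a lost peak and 6892 a gained peak, 13516 had more lost than gained peaks and 1486 the reverse, and gained peaks were 18.02% of the members counted. Each list below is described by its count beside this share. The lists were not tested, neighbouring genes such as the Cd3 genes or Rag1 and Rag2 share peaks, and some genes stand in more than 1 list. With lists of equal length, gained peaks were 41.2% of all members.

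Progenitor factors, the transcription factors of stem and early progenitor cells, had 98 lost and 8 gained peaks, so that 7.55% of the members were gained, and each of the 12 genes had more lost than gained peaks. Meis1, a homeobox partner of stem cells, had 25 lost peaks, of which 1 was still called at DP, no gained peak and 2 kept peaks. Its highest lost peak, whose window is printed above, stood at percentile 98.3 of the DN list. Erg had 18 lost and 2 gained peaks, Bcl11a 11 and 0, and Spi1, which encodes PU.1, 11 and 0. None of the 11 lost peaks of Bcl11a was called at DP, while 4 of 11 at Spi1 and 6 of 18 at Erg were. With lists of equal length 23.4% of the members at progenitor factors were gained, again below the 41.2% over all members. The Hoxc cluster held the densest 100 kb of loss, with 24 lost, 1 gained and 6 kept peaks (chr15:102900001-103000000).

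Notch pathway genes had 54 lost and 18 gained peaks (25% gained), with 18 and 3 at the receptor gene Notch1, 12 and 2 at Rbpj, the DNA-binding partner of Notch, and 8 and 3 at Notch3. Of the Notch1 lost peaks 8 were still called at DP, against 1 of 12 at Rbpj. DN surface molecules had 29 lost and 14 gained peaks (32.6%), with 6 and 1 at Kit and 7 and 2 at Il2ra, the interleukin 2 receptor alpha chain. The recombination genes had 15 and 8, and Dntt had 8 and 2, with 6 of the 8 lost peaks still called at DP. 

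T lineage factors, which act at all stages, had 95 lost and 77 gained peaks (44.8% gained), and the genes differed. Lost and gained peaks numbered 21 and 5 at Tcf12, 17 and 10 at Runx1, 9 and 0 at Myb, 6 and 0 at Tcf3 and 5 and 1 at Gfi1, where loss outnumbers gain as it did at most genes. More were gained than lost at Lef1 (17 gained and 6 lost), Ets1 (15 and 6) and Bcl11b (13 and 8). The highest lost peak of Tcf12, 125.0 kb into the gene, stood at percentile 97.8 at DN and 68.0 at DP. Most of the gained peaks of Lef1 appeared after the DP stage, since 4 of 17 were called there.

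TCR complex and signalling genes had 62 lost and 59 gained peaks (48.8% gained). Of the 15 genes, 9 had more lost than gained peaks and 5 the reverse. Ptprc, which encodes the phosphatase CD45, had 16 gained and 6 lost peaks, and Themis, a regulator of TCR signalling, 7 and 4. Cd5 and Cd6, surface molecules that mark the strength of TCR signals, had 6 gained and 3 lost peaks each. Zap70 had 7 lost peaks and 1 gained peak, and Cd3e 5 and 1. The neighbouring genes Cd3d and Cd3g had 3 lost peaks each and no gained peak.

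Genes of the positive selection response had 44 lost and 64 gained peaks (59.3% gained). Satb1, a chromatin organizer of thymocytes, had 21 gained and 3 lost peaks, and 15 of the 21 were already called at DP. Tox, which is needed for CD4 T cell development, had 14 gained and 6 lost peaks, of which 2 of the 14 were called at DP. Nr4a1, an immediate early gene of TCR signalling, had 5 and 1. Within this list Nfatc1 went the other way, with 11 lost peaks and 1 gained peak.

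Genes of maturation and egress had the highest share of gained peaks among the lists, with 33 lost and 55 gained (62.5% gained). With lists of equal length their share was 81.5%, after the 84.1% of the positive selection genes. Foxo1 had 14 gained and 4 lost peaks, Btg1 and Ccr7 6 gained peaks each (with 3 and 4 lost), and S1pr1, Il7r, Cd28 and Ms4a4b 5 gained peaks each. None of the gained peaks of S1pr1, Il7r, Ms4a4b and Ccr7 was called at DP, against 6 of 14 at Foxo1. At Ms4a4b a gained peak lay at the promoter, 51 bp before the TSS, with percentiles of 78.1 at SP4 and 76.9 at SP8.

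CD4 lineage genes had 26 lost and 31 gained peaks (54.4%), and CD8 lineage genes 25 and 23 (47.9%). In the CD4 list 4 genes had more lost than gained peaks, among them Cd4 (4 and 2) and Zbtb7b (3 and 1), and 4 the reverse. In the CD8 list 4 genes, among them Runx3 (6 and 4), had more lost and 5 had more gained peaks. Cd8b1 had 5 gained peaks and 1 lost peak, and Ifng, the interferon gamma gene, 4 and 1. Rora, an orphan nuclear receptor, gave 17 of the 31 gained and 12 of the 26 lost peaks of the CD4 list. The highest gained peak of Rora, in an intron, stood at 92.7 (SP4) and 87.2 (SP8) with no DP peak. Tnfrsf4, which encodes OX40, had 4 gained and no lost peaks. A lost peak at an exon of Cd4, 8.66 kb into the gene, was nearly as high at DP (92.1) as at DN (93.0) and was absent from both mature lists. By contrast Tbx21 (4 lost), Gzmk (5) and Nkg7 (3), genes of cytotoxic cells, had no gained peak. Under the rule a peak called in only 1 of the mature lists cannot count as gained, so gain in SP8 alone is not seen here. All peaks within 20 kb numbered 5 (SP4) and 8 (SP8) at Nkg7, 7 and 9 at Gzmk, and 11 and 11 at Tbx21. Interferon response genes had 28 lost and 10 gained peaks (26.3%), and proliferation genes 22 and 16 (42.1%). When each peak was given to 1 gene only, the proliferation share was 17.4%.

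**Figure D5:**
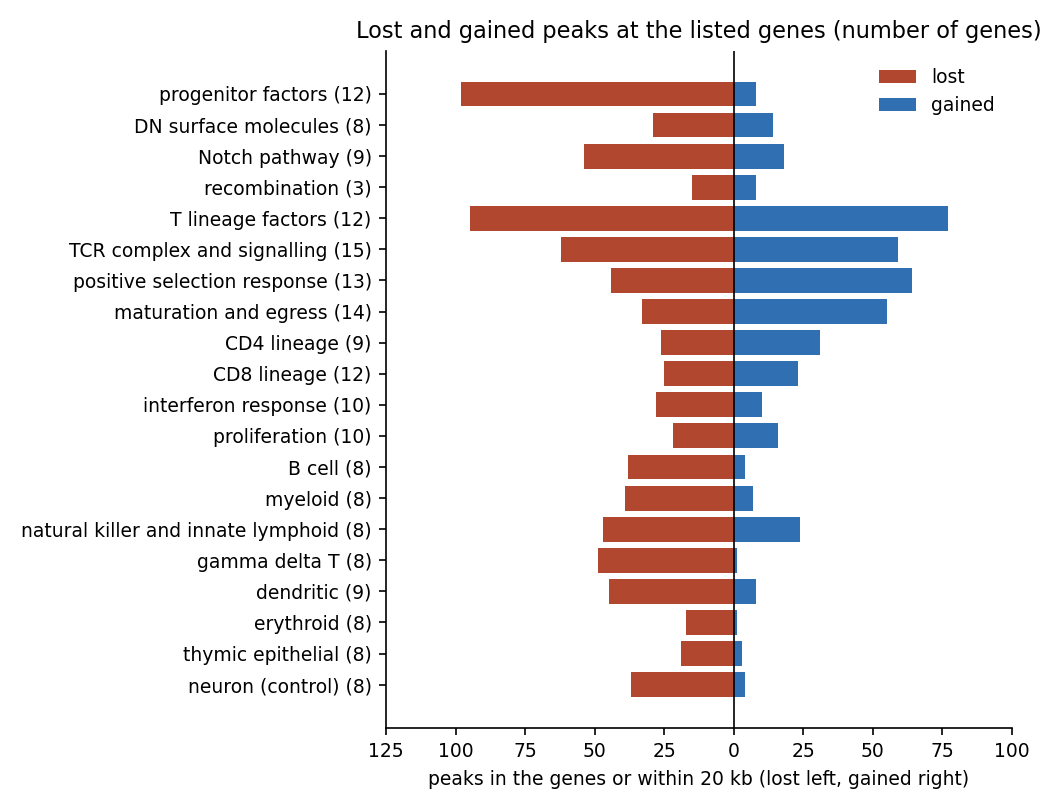
Lost peaks (red, to the left) and gained peaks (blue, to the right) within the genes of each list or 20 kb of them, with the number of genes found in parentheses. Lists of other cell types and the neuron control stand at the bottom. Progenitor factors have 98 lost and 8 gained peaks, and maturation and egress genes 33 and 55.

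Lists of other cell types had a gained share below the 18.02% over all genes, except the natural killer and innate lymphoid list. Gamma delta T cell genes had 49 lost peaks and 1 gained peak (2% gained), erythroid genes 17 and 1 (5.56%), B cell genes 38 and 4 (9.52%), thymic epithelial genes 19 and 3 (13.6%), dendritic cell genes 45 and 8 (15.1%) and myeloid genes 39 and 7 (15.2%). Natural killer and innate lymphoid genes had 47 and 24 (33.8%), of which Rora gave 12 and 17. With lists of equal length the thymic epithelial share was 55.6%, above the 41.2% over all members. The neuron genes, a control for cells foreign to the thymus, had 37 and 4 (9.76%), of which Rbfox3 gave 21 and 3. The sort removed cells with B, myeloid, erythroid, dendritic, natural killer and gamma delta T cell surface markers.

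Single strong lost peaks stood at defining genes of other cells. The promoter of Lyz2, the lysozyme of myeloid cells, had a lost peak at percentile 88.4, and a peak 2.66 kb before Siglech, a receptor of plasmacytoid dendritic cells, stood at 98.5. A peak in an intron of Pax5, the B cell commitment factor, stood at 91.1, and Pax5 had 13 lost and no gained peaks. Zbtb16, which encodes PLZF of innate-like T cells, had 20 lost and no gained peaks, the highest at 97.1 (DN) and 69.1 (DP). No lost peak was found near Ms4a1, Ncr1, Hbb-bt, Xcr1 or Trp63, and Ms4a1, Ncr1 and Trp63 had no DN peak at all within 20 kb. The part of such cells in the loss was not tested.

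When each member was given to the gene that holds it or to the nearest TSS, the genes with most lost peaks after the read-through transcript Gm20388, an annotated span of 4434.88 kb over many genes with 196 lost peaks, were Arid1b (59 lost, 6 gained), Sdk2 (50 and 2), Sulf2 (50 and 3), Med13l (49 and 10) and Cdk6 (48 and 3). Arid1b encodes a chromatin remodeller subunit and Cdk6 a kinase of the G1 phase. The lengths of these 5 genes ran from 82.575 kb (Sulf2) to 353.325 kb (Arid1b), and the part of length in the counts was not tested. A 100 kb bin within Cdk6 held 23 lost, 0 gained and 4 kept peaks (chr5:3400001-3500000).

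By the same count the genes with most gained peaks were Satb1 (58 gained, 13 lost), Bach2 (41 and 20), Foxp1 (40 and 28), Tox (35 and 12), Btg1 (34 and 7), Ets1 (31 and 20), Inpp4b (29 and 3), Dad1 (28 and 34), Lef1 (26 and 15) and Kcnh8 (22 and 1). Only genes annotated as protein-coding were given members. TCR gene segments such as Trdc, which lies near Dad1 on chromosome 14, could therefore receive none. Bach2 and Foxp1 encode transcription factors that hold T cells in a naive state. Kcnh8 lies on chromosome 17 as does Satb1, and a 100 kb bin without a protein-coding gene on this chromosome (chr17:52100001-52200000) held 13 gained, 0 lost and 6 kept peaks. The densest gain was 15 gained, 4 lost and 20 kept peaks in 100 kb at Lef1 (chr3:131100001-131200000), followed by 14 gained peaks at St6gal1 (chr16:23200001-23300000), which encodes a sialyltransferase.

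The strongest single members were among the highest peaks of their lists. The Ifi44 peak had a fold enrichment of 37.1 at DN (percentile 99.9) and no peak at any other stage. The Mylk peak had 36.8 at DN and 15.7 at DP, where it stood at 88.6, and the Gfra2 peak 36.5 and 5.85. Further lost peaks among the 8 highest lay near Pappa2 and in an intron of Mitf, both with no DP peak, and near Gm26897 and in Fam227b, both with a DP peak.

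Among gained peaks, the Slco3a1 peak had a fold enrichment of 45.6 at SP4, 44.5 at SP8 and 7.25 at DP. The Tnpo1 peak had 37.5 and 35.02 with no DP peak, and a peak at Ascc3 35.04 and 34.9 with 7.25 at DP. An intergenic peak 376691 bp from the TSS of Ptprc had 35.6 (SP4), 29.5 (SP8) and 20.1 (DP). Of these 4 peaks, Ptprc had the highest DP percentile, at 94.4.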

How the data were processed

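ATAC-seq was measured in 16 libraries (4 stages from each of 4 mice). Per the paper's methods, the authors aligned reads with BWA, removed duplicates, down-sampled each library to the median depth, pooled the mice of a stage and called narrow peaks. The names of the deposited lists give a threshold of 5% FDR and the removal of blacklisted regions. MACS2 and the build mm10 are also named in the submitters' processing notes, and versions are not given in the sources used here. The labels' stages were taken as groups, 1 list each. The deposited lists give for each peak a MACS2 score, its fold enrichment over the local background and a −log10 q-value, all written by the authors' peak caller. They hold no read counts for single peaks.

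Overlaps (at least 1 bp) were found with bedtools 2.31.1, and values computed with python 3.11.15, numpy 2.4.6, pandas 2.3.3 and scipy 1.17.1, and drawn with matplotlib 3.10.9. Scripts were tested on simulated data. Without replicate lists no test between stages was made, and chromosome counts describe how evenly a difference occurred. A promoter is the 200 bp before the TSS of any annotated transcript. The members, gene lists and motifs were chosen with earlier results of these data known. Genes named are those of the lists with the most members, the 10 genes with the most lost and the 10 with the most gained peaks, the highest peaks of each class, and the densest 100 kb bins. S1pr1, Il7r and other genes named for their small counts were singled out after their values were seen. Some members that this rule names are not reported here.

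Motifs were searched as exact words on both strands in the 200 bp around each summit. Beside those spelled out in the report, and with the share of all peaks of the 4 lists that held them, they were PU.1 GAGGAAGT (4.66%), SOX CATTGT (7.73%), the GATA factor word (AGATAA, 7.54%), EGR GTGGGNG (20.9%), KLF GGGTGTG or GGGCGTG (9.51%), NFAT ATTTTCCA or CTTTTCCA (1.43%), CRE TGACGTCA (0.566%), ROR AGTGGGTCA or AGTAGGTCA or ACTGGGTCA or ACTAGGTCA (0.666%), STAT TTCNNNGAA (5.27%), MYB AACTGNC (9.74%), MEIS/PKNOX TGACAG (18.3%), MAF TGCTGAC (3.95%), NRF1 GCGCATGCG (0.320%), NFY GCCAAT (6.41%) and CTCF by its consensus (5.39%). Some words overlap. In lost windows 16.9% of CTCF matches shared a base with CAGGTG, 19.2% of KLF matches with EGR, 7.93% of KLF matches with RUNX and 6.97% of MEIS/PKNOX matches with CAGCTG.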

Additional observations from a re-analysis of the deposited data

How the results depend on the processing

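No paired analysis was possible because the authors pooled the 4 mice of each stage into 1 peak list, so mice could be neither blocked nor left out. With lists of equal length 24766 peaks were lost and 17364 gained. The share of lost peaks already absent at DP was 69.9% with equal lengths, 80.1% when 50% of a peak had to be covered, 79.6% by the summit, 78.1% with the other lists extended by 100 bp and 79.5% over merged regions, and the share of gained peaks already at DP was 45.8% with equal lengths and 31.6% over merged regions. With a promoter of 1 kb the promoter shares of lost, gained and kept peaks were 12.9%, 11.9% and 29.0%, by the summit 3.77%, 3.24% and 14.2%, with protein-coding transcripts 4.14%, 2.995% and 17.8%, and with equal lengths 7.70% (lost) and 6.52% (gained). The median distance to a protein-coding TSS was 15941 bp (lost), 16414 bp (gained) and 9313.5 bp (kept), and 3253 bp for kept peaks from the summit. The STAT word, less frequent in lost than in gained windows, turned to a log2 ratio of 0.11 among windows of 45 to 55% GC. The causes were not tested. Of the other values, 108 stayed within their counting interval (for counts, within a set fold) and 70 did not. The gene lists of myeloid, dendritic, proliferation, recombination and thymic epithelial genes changed sides of the overall gained share under 1 alternative each. The equal-length motif, promoter and gene-list values, the symmetric pair of lists and the GC windows were chosen after seeing the data. The pooled lists give no read counts, and a site under the caller's threshold is not shown to be closed.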
